A study of Mus musculus with 15 samples.

Results

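The mitochondrial ribosome of the mouse is built from 2 ribosomal RNAs made inside the mitochondrion and a large set of proteins whose genes lie in the nucleus, most of them named Mrpl (large subunit) or Mrps (small subunit). All protein-coding genes with a symbol of Mrpl or Mrps, a number and at most 1 letter were taken. There are 78 such genes, 49 Mrpl and 29 Mrps. Of these, 77 were among the 28785 gene IDs with a count in the series, and Mrpl53 was not analysed here. The transcripts were counted in single mouse oocytes with MATQ-seq, which copies and amplifies the total RNA of 1 cell. The 9 GV oocytes were fully grown oocytes still arrested in meiotic prophase, with an intact nucleus called the germinal vesicle. They came from female mice of about 6 to 8 weeks, 44 h after an injection of 7 IU of PMSG, a hormone that makes follicles grow. The 6 MII oocytes were mature eggs arrested in the second meiotic metaphase. They came from mice given 7 IU of PMSG and, about 48 h later, 7 IU of hCG, the hormone that triggers maturation and ovulation, and were collected from the oviducts 20 h after the hCG, once 300 IU/mL hyaluronidase had removed the cumulus cells. No transgene, mutation or drug is named for either stage, nor are a strain or individual mice. Each stage therefore counts as 1 sample of single cells, nothing was tested between stages, and each difference is given by its size with the oocyte-to-oocyte spread.

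As background, mitochondrial ribosomes translate only the few messages of mitochondrial DNA, all of them for membrane subunits of the respiratory chain and the ATP synthase. Each ribosomal protein is made in the cytosol and imported, so the supply of the organelle's ribosomes depends on nuclear transcripts. A fully grown oocyte holds a very large store of mitochondria and messenger RNA. Transcription stops before maturation, and during maturation stored transcripts are kept, adenylated or degraded. Several proteins have relatives in the bacterial ribosome, and others were added in the mitochondrial lineage.

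A GV oocyte had 3687610 to 7103063 counts in total and an MII oocyte 808641 to 2348281. An unnamed feature (ENSMUSG00000119584) took 15.7% to 61.2% of the counts of the MII oocytes, 3.43% to 11.2% in GV7 to GV9 and 0% in GV1 to GV6. Column headers of the files begin with Y for GV1 to GV6 (the Y set) and with E for GV7 to GV9 (the E set), and all MII files have a header of another kind, so that the stages cannot be told apart from the sets of files. In CPM, counts scaled to the same total in every oocyte or stage, the log2 ratio MII/GV of the median measured gene was −0.91. Ratios below are log2 MII/GV of counts summed over each stage, relative to that median gene. Oocyte markers were present in every oocyte, with a summed level of 8721 to 32518 CPM in GV and 7074 to 9618 CPM in MII. Of 15 cumulus and granulosa markers, 7 were at 0 in MII (among them Foxl2, Amh and Inha) and 1 in GV (Tnfaip6). Their sum was 257 to 472 CPM in GV and 106 to 278 CPM in MII, most of it Serpine2. Markers of theca and stroma, blood and immune cells and oviduct epithelium summed to 0.471 to 27.4, 5.86 to 72.2 and 541 to 1325 CPM in GV. At 0 in GV were 1 of 10, 7 of 11 and 1 of 10 of these markers. Only 5 of the 11 blood and immune markers had a count in the series. In MII the sums were 0 to 24.3, 12.5 to 32.1 and 292 to 1257 CPM, with 8 of 10, 8 of 11 and 8 of 10 markers at 0, and Cdh1 made up most of the oviduct sum. The part of other cells in the results below was not tested.

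As a group, the mitochondrial ribosomal protein genes stood where the median transcript stood, with members well to either side. Of 77 genes, 46 were measured, meaning a mean of the GV and MII levels of at least 5 CPM, and these 29 Mrpl and 17 Mrps genes had a median ratio of 0.01. Genes at least 2-fold lower in MII numbered 8 (17.4%), against 12.2% of all 9003 measured genes. Those at least 2-fold higher numbered 7 (15.2%), against 11.0% of all measured genes. The other 31 lay within 2-fold. The middle of the group was wider than that of all genes, with quartiles of −0.76 and 0.64 against −0.52 and 0.52. Members were not matched to genes of the same level, and the part of low counts in this width was not tested. By name, the Mrpl genes had a median of −0.03 (5 lower and 5 higher) and the Mrps genes one of 0.10 (3 lower and 2 higher). These are not medians of the subunits. Mrps18a and Mrps30 belong to the large subunit, and Mrps36 is now known from another complex, yet all were counted as Mrps. Members listed with a counterpart in the bacterial ribosome had a median of −0.23 (26 measured) and those with none listed a median of 0.15 (20 measured). The listing may be incomplete, and Mrpl55 was among those with none listed.

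The filter shaped this count. Of the 46 measured genes, 34 reached 5 CPM in both stages, 12 in GV only and none in MII only. Over all 77 genes the median was −0.23, with 18 lower and 11 higher, against 23.0% and 26.2% of all 28785 gene IDs. With a filter of 5 CPM in the higher stage, 56 genes were measured, the median was −0.16, and 12 were lower and 7 higher, against 15.5% and 12.1% of all genes under that filter. The values also moved with the set of GV files. Against the Y set the median was 0.10, with 7 of 46 lower and 7 higher (background 13.4% and 11.1%). Against the E set it was −0.35, with 17 of 51 lower and 8 higher (background 19.1% in each direction). Without GV3, 14 members were lower, and without MII5, 4 were higher. Without MII5 and MII6, 16 were lower and 1 higher. The shares of all measured genes without these oocytes are not given here, so the counts do not set the members apart from other genes. In CPM of the total counts, without reference to the median gene, the level was lower in MII for 39 of the 46 genes and higher for 7, against 86.9% and 13.1% of all measured genes. The sum over all members was 1345 CPM in GV, with an exact Poisson 95% interval of 1334 to 1356, and in MII it was 779 CPM, with one of 761 to 797. The interval covers counting error only, since PCR reads are not independent molecules.

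The group was set beside 2 other lists, both chosen with earlier results of these data known. Genes of the cytosolic ribosome, which makes all nuclear-encoded proteins, had a median of −1.27 over 62 measured, with 35 lower and 3 higher. Nuclear-encoded subunits of the respiratory chain and ATP synthase, the partners of the proteins that mitochondrial ribosomes make, had a median of −0.61 over 52 measured, with 24 lower and 4 higher. The differences between the lists were not tested. With the same MII oocytes, the medians were 0.10, −0.83 and −0.52 for the mitochondrial ribosome, cytosolic ribosome and respiratory chain lists against the Y set, and −0.35, −2.05 and −1.21 against the E set. The 3 medians without MII5 and MII6 were −0.47, −1.66 and −1.33. Without GV4 the respiratory chain list moved to −0.20, while the mitochondrial and cytosolic ribosome lists stood at 0.03 and −1.09. The spread of the list level between oocytes was 0.81, 1.03 and 0.93 in the same order. The level of the mitochondrial ribosome list per oocyte, the median over its measured genes of log2(CPM + 1) with the same value of the median gene subtracted, ran from −1.60 (GV2) to 0.01 (GV4) in GV and from −1.37 (MII1) to 0.20 (MII5) in MII. Its stage means were −0.91 and −0.91, with SDs of 0.50 (n = 9 oocytes) and 0.63 (n = 6 oocytes). The ranges overlapped in large part, with MII5 above every GV oocyte and GV2 below every MII oocyte.

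**Figure D1:**
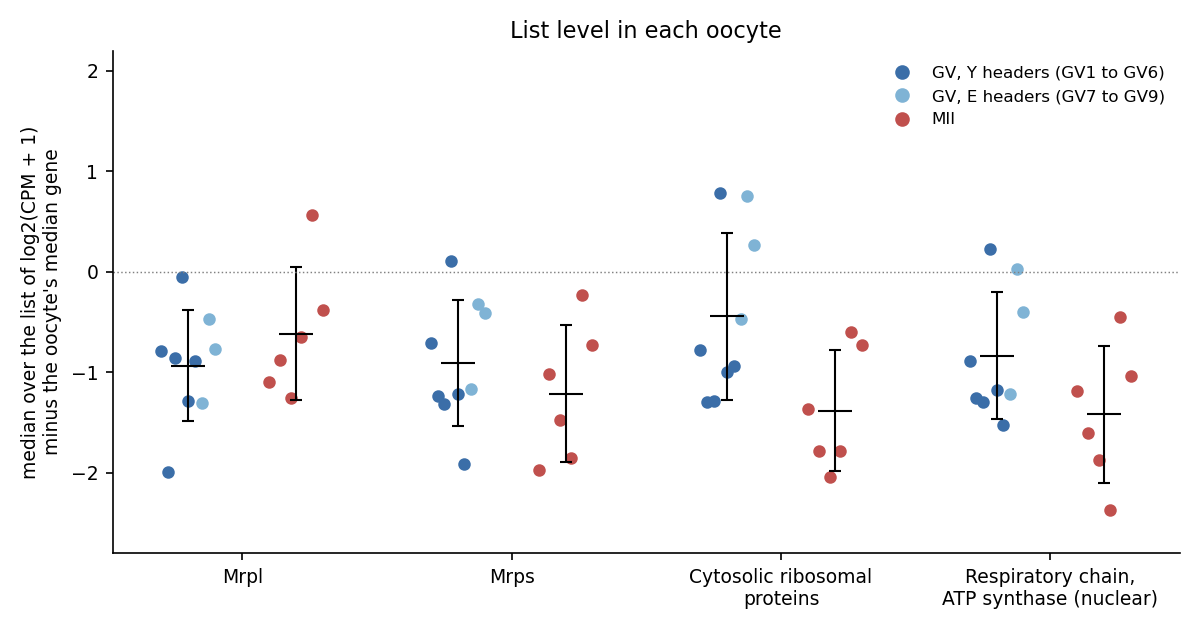
List level in each oocyte: each point is 1 oocyte and gives the median over the measured genes of a list of log2(CPM + 1), minus the oocyte's median measured gene, with GV1 to GV6, GV7 to GV9 and MII in separate colours. Horizontal bars are stage means and error bars 1 SD (9 GV and 6 MII oocytes). The stages overlap in all 4 lists, and GV4, GV8 and MII5 stand high for their stage in all 4.

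Within the group, 23 genes had a ratio below 0 and 23 a ratio above 0. A ratio larger than its own spread (the SD over 9 GV oocytes combined with that over 6 MII oocytes) was seen for 8 of the 46, 6 of them lower and 2 higher in MII, against 8.33% and 8.32% of all measured genes. Mrpl28 was the single gene of the 46 whose relative levels did not overlap between stages, where 0.711% of all measured genes were lower without overlap and 1.58% higher. In CPM, all MII oocytes lay below all GV oocytes for Mrpl28, Mrps18c and Mrps2, as they did for 4.63% of all measured genes. None of the 46 had all MII oocytes above all GV oocytes on either scale, and in CPM 0.0889% of all measured genes did.

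**Figure D2:**
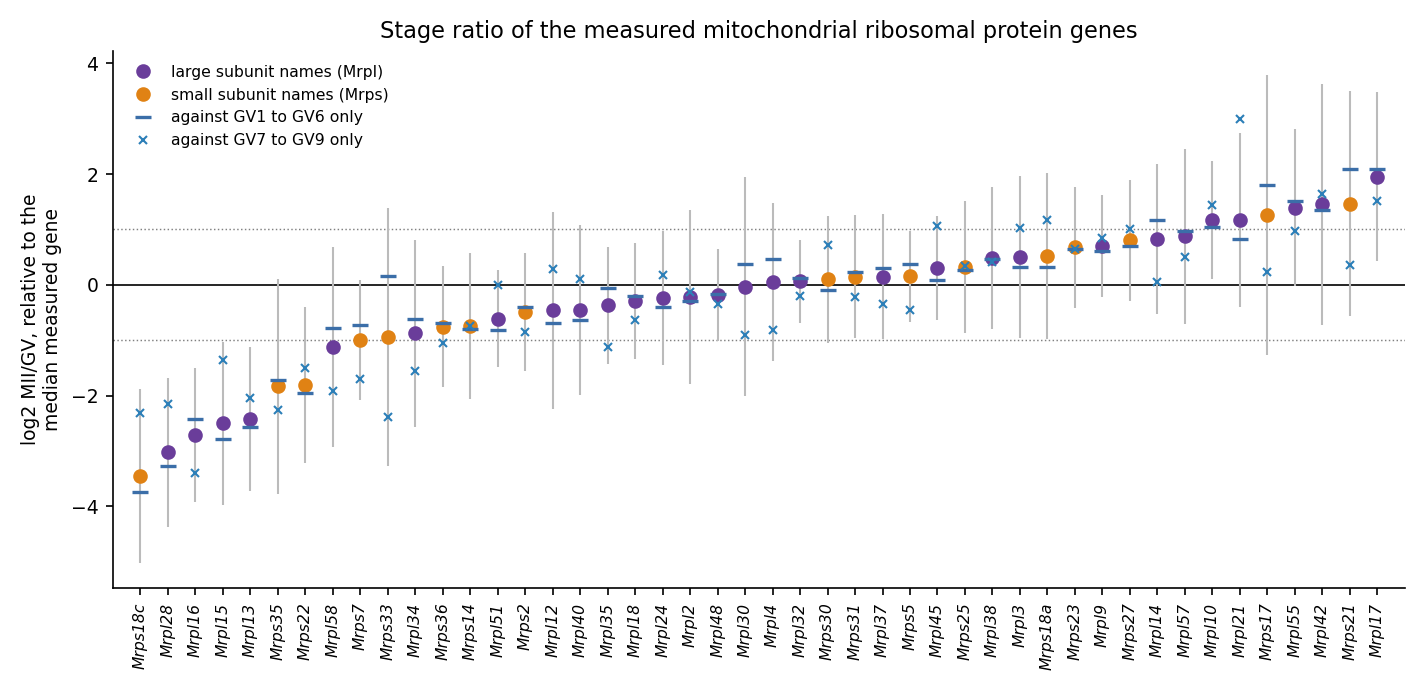
Stage ratio of each of the 46 measured genes: circles give log2 MII/GV of summed counts relative to the median measured gene (0), grey lines the spread between oocytes on either side, dashes the ratio against GV1 to GV6 and crosses that against GV7 to GV9. Dotted lines mark 2-fold; the 8 genes beyond it on the low side run from −3.46 for Mrps18c to −1.12 for Mrpl58, and the highest is Mrpl17 at 1.95.

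The lowest ratio belonged to Mrps18c (ENSMUSG00000016833), a small subunit protein from a family of paralogs related to a single bacterial protein. It had a lowest, median and highest level of 8.04, 10.03 and 76.8 CPM in GV, and of 0, 0 and 3.41 CPM in MII. Of the MII oocytes only MII1 and MII6 had counts, and no MII oocyte reached the lowest GV oocyte. The ratio was −3.46 ± 1.57 (spread). It was −3.74 against the Y set, −2.32 against the E set and −5.29 without MII6. A predicted gene on the same strand, Gm43511, shares 250 bases of its exons (23.2%), and its part was not tested.

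Mrpl28 (ENSMUSG00000024181), a large subunit protein with a bacterial relative, had 11.8, 22.7 and 73.7 CPM in GV at the lowest, median and highest. In MII it had 0, 1.76 and 3.64 CPM. The 2 stages were separate in CPM and in relative level, and the ratio was −3.03 ± 1.35. The relative level ran from −1.26 to 0.89 in GV and from −4.54 to −1.43 in MII. Leaving out any 1 oocyte left the ratio between −3.38 and −2.76.

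Mrpl16 (ENSMUSG00000024683) is the large subunit protein whose bacterial relative lies near the site where the peptide bond forms. It had 1.69, 13.2 and 34.3 CPM in GV and 0.607, 1.14 and 2.18 CPM in MII. All MII oocytes had counts, and only GV3 fell among them. The ratio was −2.71 ± 1.21, −2.43 against the Y set and −3.41 against the E set.

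Mrpl15 and Mrpl13 are further large subunit proteins with bacterial relatives. Mrpl15 (ENSMUSG00000033845) had 0.206, 5.85 and 34.5 CPM in GV, with GV4 far above the rest, and counts in 2 of 6 MII oocytes, the highest at 3.29 CPM. Its ratio was −2.50 ± 1.47, −3.42 without MII2 and −1.88 without GV4. It was −2.78 against the Y set and −1.35, within the spread, against the E set. Mrpl13 (ENSMUSG00000022370) had 0.707, 9.996 and 18.8 CPM in GV and 0, 0.790 and 3.71 CPM in MII, a ratio of −2.42 ± 1.30. In both genes the lowest GV oocytes (GV6 and GV7 for Mrpl15, GV7 and GV9 for Mrpl13) lay inside the MII range.

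Mrps22 (ENSMUSG00000032459) is a small subunit protein with no bacterial relative, whose human gene is known from families with ovarian dysgenesis and from mitochondrial disease. It had 14.4, 24.5 and 82.1 CPM in GV and 0, 4.28 and 14.5 CPM in MII. The highest MII oocyte (MII2) just passed the lowest GV oocyte (GV7). The ratio was −1.81 ± 1.41. Mrps35 (ENSMUSG00000040112), also specific to mitochondria, had 4.33, 27.5 and 57.1 CPM in GV and 0, 2.21 and 7.28 CPM in MII. Its ratio of −1.83 did not exceed its spread of 1.95, and was −3.12 without MII5 and MII6.

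Mrpl58 (ENSMUSG00000018858) encodes a peptidyl-tRNA hydrolase that frees stalled ribosomes and also sits in the large subunit. It had 2.81, 15.2 and 37.9 CPM in GV and 0, 4.45 and 8.94 CPM in MII. The ranges overlapped, and the ratio of −1.12 ± 1.80 fell inside 2-fold against the Y set (−0.79) and without MII4 (−0.81), and was −1.94 without MII6.

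At the other end stood Mrpl17 (ENSMUSG00000030879), a large subunit protein with a bacterial relative. It had 8.91, 29.5 and 54.1 CPM in GV and 27.6, 39.6 and 125 CPM in MII. MII5 and MII6 lay above all GV oocytes, and the other 4 MII oocytes lay inside the GV range. The ratio was 1.95 ± 1.53, similar against the Y set (2.08) and GV7 to GV9 (1.52), and 0.83 without MII5 and MII6. Its summed level was 31.7 CPM in GV and 65.1 CPM in MII, so it was higher in MII also without reference to the median gene (log2 1.04).

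Mrpl10 (ENSMUSG00000001445) anchors the stalk that recruits translation factors, and was the other member higher in MII by more than its spread. It had 3.75, 11.9 and 41.4 CPM in GV and 5.11, 20.2 and 30.9 CPM in MII, with GV1 above all MII oocytes. The ratio was 1.17 ± 1.06, and between 1.02 and 1.51 with any 1 oocyte left out. In CPM the stages differed little, 14.6 in GV and 17.4 in MII. Mrpl12, whose copies form the stalk on Mrpl10, went the other way, with 24.9 CPM in GV, 9.55 CPM in MII and a ratio of −0.46 ± 1.78.

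The remaining genes at least 2-fold higher did not exceed their spread. Mrps21 (ENSMUSG00000054312), a small subunit protein with a bacterial relative, had 1.83, 6.37 and 20.99 CPM in GV and 0, 7.95 and 16.4 CPM in MII. Its ratio of 1.47 ± 2.03 was 2.10 against the Y set and 0.35 against the E set. Mrpl55 (ENSMUSG00000036860), a large subunit protein, had no bacterial counterpart listed here. It had 4.69, 10.3 and 36.0 CPM in GV and 7.42, 17.0 and 44.9 CPM in MII. Its ratio of 1.39 ± 1.41 was 0.94 without MII5. Both genes overlapped between stages over most of their range.

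The next ratios rested on single MII oocytes. Mrpl42 (ENSMUSG00000062981), specific to mitochondria, had 0.657, 7.42 and 59.5 CPM in MII, the highest in MII5, and 4.24, 7.59 and 24.6 CPM in GV. Its ratio of 1.45 ± 2.18 was −0.07 without MII5. Mrps17 (ENSMUSG00000034211), a small subunit protein with a bacterial relative, had 0.728, 3.41 and 32.8 CPM in MII and 1.03, 7.60 and 24.98 CPM in GV. Its ratio of 1.26 ± 2.52 was 0.07 without MII6 and −1.43 without MII5 and MII6. These 2 MII oocytes also had the highest shares of the unnamed feature (52.6% and 61.2%) and the fewest genes with counts when all oocytes were thinned to 808641 counts (8891 and 10053, against 10305 to 12504 in MII1 to MII4). The part of these features in the ratios was not tested.

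Mrpl21 (ENSMUSG00000024829), a large subunit protein with a bacterial relative, depended on the set of GV files. It had 8.49, 37.9 and 144 CPM in GV and 24.3, 49.8 and 90.7 CPM in MII. GV7, GV8 and GV9 all lay below every MII oocyte, as did GV6 of the Y set (12.2 CPM), while GV1 to GV5 lay inside or above the MII range. The ratio was 1.17 ± 1.57, 0.83 against the Y set and 2.99 against the E set. Mrpl57 (ENSMUSG00000021967), a small protein specific to mitochondria, closed the list of the 8 highest at 0.88 ± 1.58, with 8.997 CPM in GV and 8.72 CPM in MII.

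**Figure D3:**
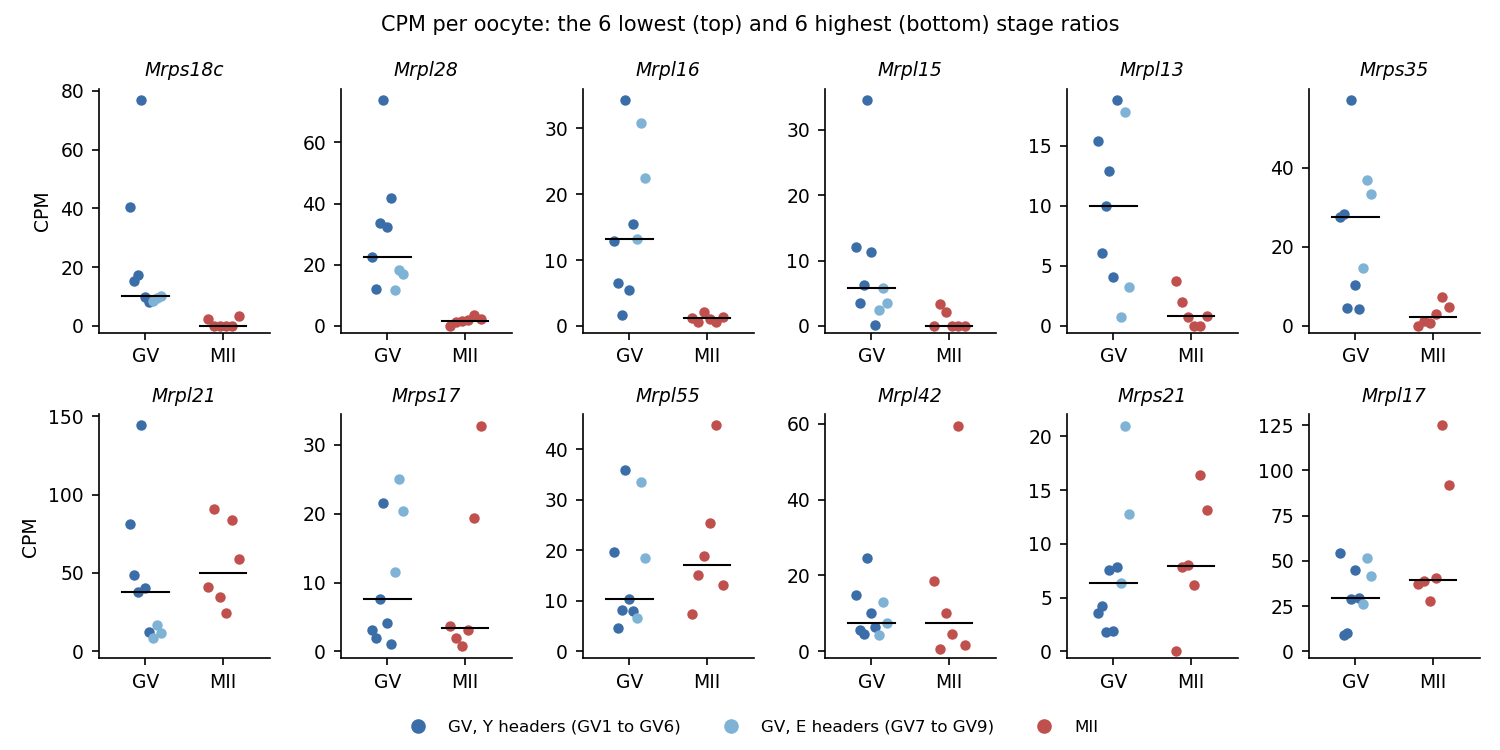
CPM in each oocyte for the 6 genes with the lowest ratios (top row) and 6 with the highest (bottom row), 1 point per oocyte on linear axes from 0, with GV1 to GV6, GV7 to GV9 and MII in separate colours. Horizontal lines are stage medians; the top genes have MII levels of 7.28 CPM or less, while in the bottom row MII5 or MII6 often lies far above the other MII oocytes (59.5 CPM for Mrpl42 in MII5).

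Promoter sequence was set beside these ratios because nuclear genes for mitochondrial proteins are known to share sites for NRF1, ETS factors (the family of NRF2) and YY1. The 300-base windows (250 before to 50 after a start) of RefSeq on GRCm38.p6 gave 75 windows for 69 members and 21263 windows for all protein-coding genes. The letters searched, on both strands, were CCGGAAG for ETS, GCGCANGCG for NRF1, AAGATGGCG for YY1 and CCAAT for the CCAAT box, none of which contains another. The ETS letters were in 34.7% of the member windows and 11.6% of all windows. The NRF1 letters were in 21.3% and 8.58%, and the YY1 letters in 10.7% and 1.83%. The CCAAT box was in 40.0% and 38.2%. A match describes the letters and not binding of a factor. Measured members with the NRF1 letters had a median ratio of 0.76 (10 genes) and those without one of −0.24 (31 genes). The medians were 0.16 (16 genes) and 0.06 (25 genes) with and without the ETS letters, 0.52 (5 genes) and −0.10 (36 genes) for YY1, and 0.15 (13 genes) and −0.21 (28 genes) for the CCAAT box. These differences were not tested.

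The stretch before the start is shown for 4 genes, picked by hand with their values known. They are Mrpl17, the highest ratio, Mrps18a, high in both stages, and Mrps22 and Mrpl16, both low in MII. The genes with the lowest ratios, Mrps18c and Mrpl28, are not shown. Their windows held ETS letters (Mrps18c) and a CCAAT box (Mrpl28), so the genes shown cannot link letters with ratios. Capitals mark the searched letters on either strand, and each is read 5′ to 3′ on the gene's strand from RefSeq, GRCm38.p6. Mrpl17 lies on the minus strand at chr7:105811100-105811337, Mrps18a on the plus strand at chr17:46110754-46110985, Mrps22 on the minus strand at chr9:98601680-98601929 and Mrpl16 on the plus strand at chr19:11770165-11770390.
Mrpl17: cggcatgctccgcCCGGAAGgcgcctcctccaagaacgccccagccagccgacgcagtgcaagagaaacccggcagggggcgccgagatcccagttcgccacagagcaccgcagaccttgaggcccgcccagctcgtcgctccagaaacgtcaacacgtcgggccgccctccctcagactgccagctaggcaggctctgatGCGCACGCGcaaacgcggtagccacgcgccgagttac
Mrps18a: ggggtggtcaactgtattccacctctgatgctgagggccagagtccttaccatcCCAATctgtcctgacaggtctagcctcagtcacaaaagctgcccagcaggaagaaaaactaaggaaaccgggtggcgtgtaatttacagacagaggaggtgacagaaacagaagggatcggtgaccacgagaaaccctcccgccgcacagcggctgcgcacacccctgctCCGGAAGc
Mrps22: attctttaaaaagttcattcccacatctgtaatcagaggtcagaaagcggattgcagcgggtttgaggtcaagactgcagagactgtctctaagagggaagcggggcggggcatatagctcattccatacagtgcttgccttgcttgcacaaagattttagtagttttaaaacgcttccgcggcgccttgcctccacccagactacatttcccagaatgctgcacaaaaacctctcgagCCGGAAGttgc
Mrpl16: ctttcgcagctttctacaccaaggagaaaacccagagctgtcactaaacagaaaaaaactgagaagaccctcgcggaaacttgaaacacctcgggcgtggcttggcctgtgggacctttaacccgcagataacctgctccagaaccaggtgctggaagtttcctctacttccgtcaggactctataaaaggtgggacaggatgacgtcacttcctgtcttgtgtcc
The Mrpl17 stretch holds ETS and NRF1 letters, and the Mrps18a stretch a CCAAT box and ETS letters. In the 300-base windows Mrps18a also had YY1 letters, which lie outside the stretch shown. The Mrps22 stretch holds ETS letters. None of the searched letters is in the Mrpl16 stretch.

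Mrps18a, Mrps18b and Mrps18c descend from copies of a single gene, but only the product of Mrps18c takes the bacterial protein's place, while Mrps18b occupies another site of the small subunit and Mrps18a belongs to the large subunit despite its name. Their ratios stood at 0.52 for Mrps18a and −0.29 for Mrps18b, each within its spread between oocytes, and at −3.46 ± 1.57 for Mrps18c. Mrps18a (ENSMUSG00000023967) had 26.9, 46.8 and 152 CPM in GV and 12.4, 40.1 and 70.7 CPM in MII, and the stages overlapped. Mrps18b (ENSMUSG00000024436) was low throughout and not measured, with 0.469, 4.07 and 8.53 CPM in GV and 0.657, 1.61 and 4.25 CPM in MII. Reads that match more than 1 gene may be split among paralogs, and how the authors treated such reads was not given in the sources used here.

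Levels between members were compared as CPM per kb of the median protein-coding transcript length. The median member stood at 6.84 CPM per kb in GV and 2.82 CPM per kb in MII. In GV the highest were Mrpl48 (88.5 CPM per kb), Mrps18a (79.0), Mrpl4 (60.8), Mrpl21 (48.5), Mrps2 (43.1) and Mrpl17 (42.6). In MII they were Mrpl17 (87.6 CPM per kb), Mrps18a (60.3), Mrpl21 (58.0), Mrpl48 (41.5), Mrpl14 (38.8) and Mrpl4 (33.5). Of these, 5 genes were among the 6 highest in both stages, and Mrpl17 was sixth in GV and first in MII. The order depends on the length used: per kb of all annotated exons Mrps2 came first in GV and Mrpl21 in MII, Mrpl48 took places 23 and 21, and Mrpl17 places 35 and 15.

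**Figure D4:**
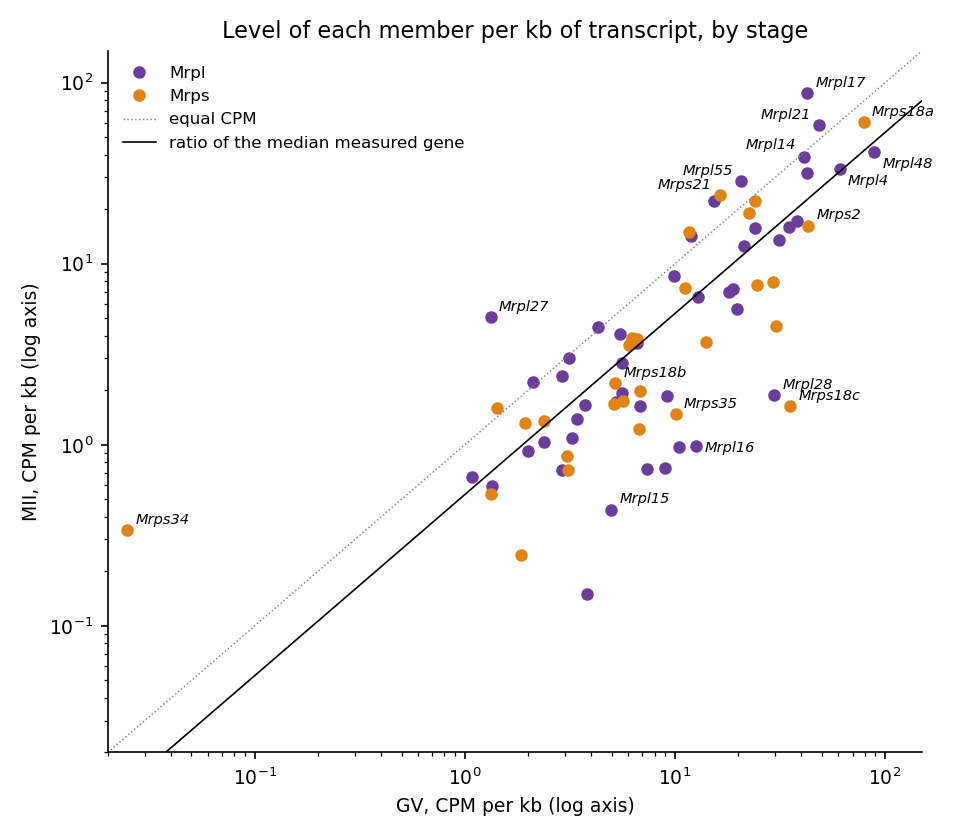
Level of each member as CPM per kb of transcript in GV (x axis) and MII (y axis), both on log axes, for the 75 members with counts in both stages. The dotted line marks equal CPM and the solid line the ratio of the median measured gene (log2 −0.91); Mrpl17 lies at 42.6 and 87.6, while Mrpl28 and Mrps18c lie far below the solid line.

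Of these abundant members, Mrpl48 (ENSMUSG00000030706), specific to mitochondria, had 40.3, 55.5 and 155 CPM in GV and 24.9, 33.3 and 50.4 CPM in MII. Its ratio was −0.18 ± 0.83. Mrpl4 (ENSMUSG00000003299), which lines the tunnel through which the new peptide leaves, had 5.86, 46.4 and 128 CPM in GV and 15.3, 25.4 and 39.6 CPM in MII, a ratio of 0.06 ± 1.43. Mrpl14 (ENSMUSG00000023939), at the face that meets the small subunit, had 6.33, 22.2 and 68.0 CPM in GV and 8.94, 21.7 and 45.5 CPM in MII, a ratio of 0.83 ± 1.35. These 3 genes overlapped between stages. Mrps2 (ENSMUSG00000035772), a small subunit protein with a bacterial relative, had 64.0, 80.3 and 149 CPM in GV and 11.1, 28.0 and 63.7 CPM in MII. The highest MII oocyte (MII5) lay just under the lowest GV oocyte (GV2). Relative to the median gene the stages of Mrps2 overlapped and the ratio was −0.50 ± 1.07.

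Other members with known roles stayed within 2-fold, and were picked for their roles after their values were seen. Mrpl45, which ties the ribosome to the inner membrane where its products are inserted, had 35.1 CPM in GV and 22.9 CPM in MII, a ratio of 0.30 ± 0.94. Mrps27, an RNA-binding protein of the small subunit, had 32.9 and 30.4 CPM, a ratio of 0.80 ± 1.10. Mrps30, which belongs to the large subunit despite its name, had 7.93 and 4.46 CPM, a ratio of 0.10 ± 1.15. Mrpl24, next to the tunnel exit, had 46.7 and 20.97 CPM, a ratio of −0.24 ± 1.21.

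No MII oocyte had a count of Mrpl19 or Mrpl20. Mrpl19 (ENSMUSG00000030045) had 88 counts in GV, 2.00 CPM, spread over 5 of 9 oocytes with 11.2 CPM in GV1. Its GV level was 6.44-fold a floor of 3 counts over the MII stage (0.311 CPM). Without GV1, which held 54 of the counts, it was 2.79-fold that floor. These folds leave out the counting error of GV. With all oocytes, the lower limit of the exact counting interval was 5.12-fold. Mrpl20 (ENSMUSG00000029066), whose bacterial relative is needed early in assembly, had 36 counts in GV, 0.820 CPM. They lay in 4 of 9 oocytes, with 5.05 CPM in GV8. The GV level of Mrpl20 was 2.63-fold the same floor, and 1.36-fold without GV8. With all oocytes, its lower counting limit was 2.03-fold. The folds of both genes are in CPM, without reference to the median gene. That gene was itself lower in MII (log2 MII/GV −0.91), so part of each fold is shared with it. Of GV1 to GV6, only GV6 had counts of Mrpl20 (5 counts). Neither Mrpl19 nor Mrpl20 was measured by the filter. The ratio of Mrpl19 was −4.78 against the Y set and −1.26 against the E set, and that of Mrpl20 −0.81 and −4.91. Such ratios depend on the 0.5 added to each sum.

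A few more members, chosen after their values were seen, were close to 0 in MII. Their folds are also in CPM and include the lower level of the median gene in MII (log2 MII/GV −0.91). Mrpl23 had 116 counts in GV and 1 in MII, 25.4-fold higher in GV in CPM (exact 95% counting interval 4.48 to 1014). Mrpl52 had 165 and 3 counts, 12.1-fold higher (4.06 to 59.1). Mrps6 had 69 and 2 counts, 7.57-fold higher (2.02 to 63.7). By contrast, Mrpl27 had 44 counts over the GV stage and 37 over MII, at 18.2 CPM in MII5 and 4.601 CPM in MII2 and 0 in the other MII oocytes.

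Mrps34 had 1 count in all GV oocytes and 3 counts in MII, all in MII1. Of its annotated exon bases, 77.8% are shared with Mapk8ip3 on the opposite strand (78.9 CPM in GV, 39.6 CPM in MII) or Nme3 on the same strand (0 counts in both stages). The handling of reads in shared bases was not given in the sources used here, and the part of the overlap was not tested. Mrps25 shares 69.8% of its exon bases with Nr2c2 on the opposite strand (24.5 CPM in GV, 14.0 CPM in MII). It had 67.4 CPM in GV oocytes and 44.6 CPM in MII oocytes. The 60 members with under 10% of their bases shared had a median of 6.69 CPM per kb in GV, and the 15 members with 10% to 50% shared one of 11.9. The 2 members with at least 50% shared, Mrps25 and Mrps34, had one of 5.57. Without a stated strand, reads of a member and of a gene opposite it cannot be told apart, and this touches Mrpl46 and Mrps11, which share 173 bases on opposite strands (8.34 and 5.42 CPM in GV, 0.831 and 1.77 CPM in MII).

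Members, like all genes, were found less often in MII, at a lower depth. Counts were present for 69 to 76 of the 77 genes in a GV oocyte and for 52 to 64 in an MII oocyte. With every oocyte thinned to 808641 counts these were 60 to 73 and 51 to 58, and all genes with counts numbered 12366 to 15229 and 8891 to 12504. Genes with counts in every oocyte of a stage numbered 61 in GV and 36 in MII, or 45 and 31 after thinning. The thinned ranges of the stages did not overlap, but the unnamed feature also takes part of the thinned counts in MII.

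Much of the variation was shared by many members of the same oocyte. The summed level of all members was lowest at 835 CPM in GV7 and highest at 2578 CPM in GV4, followed by 2090 CPM in GV8. In MII it ran from 614 CPM in MII3 to 1160 CPM in MII5. Of the 46 measured genes, 28 had their highest GV level in CPM in GV4, 11 in GV8 and 3 in GV1, and 17 had their highest MII level in MII5. GV2 was lowest for 12. The same shares over all measured genes are not given here, so the pattern is not shown to be particular to the members. The cytosolic ribosomal protein sum was also highest in GV4 (9283 CPM) and in MII5 (2023 CPM), as were the sums of the respiratory chain genes (4360 and 1575 CPM) and of the oocyte markers (32518 and 9618 CPM).

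Members also differed in how evenly they were held. Among the 46 measured genes, the smallest SDs of relative level in GV were 0.38 for Mrps2, 0.41 for Mrps36 and 0.54 for Mrpl24. Mrps36 (ENSMUSG00000061474) carries a ribosomal name but its product is now known as a subunit of the oxoglutarate dehydrogenase complex. It had 7.78, 14.4 and 28.2 CPM in GV and 2.47, 3.99 and 9.71 CPM in MII, a ratio of −0.76 ± 1.10. The largest SDs of the 46 were 1.67 for Mrps33, 1.497 for Mrpl34 and 1.37 for Mrps17. Mrps33 (ENSMUSG00000029918), a small subunit protein, ran from 2.11 CPM in GV3 to 93.0 CPM in GV8, and its ratio of −0.95 ± 2.33 was 0.17 against the Y set and −2.39 against the E set. Mrpl34 (ENSMUSG00000034880), a large subunit protein with a bacterial relative, ran from 0.235 CPM in GV2 to 24.98 CPM in GV8, with a ratio of −0.88 ± 1.68.

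**Figure D5:**
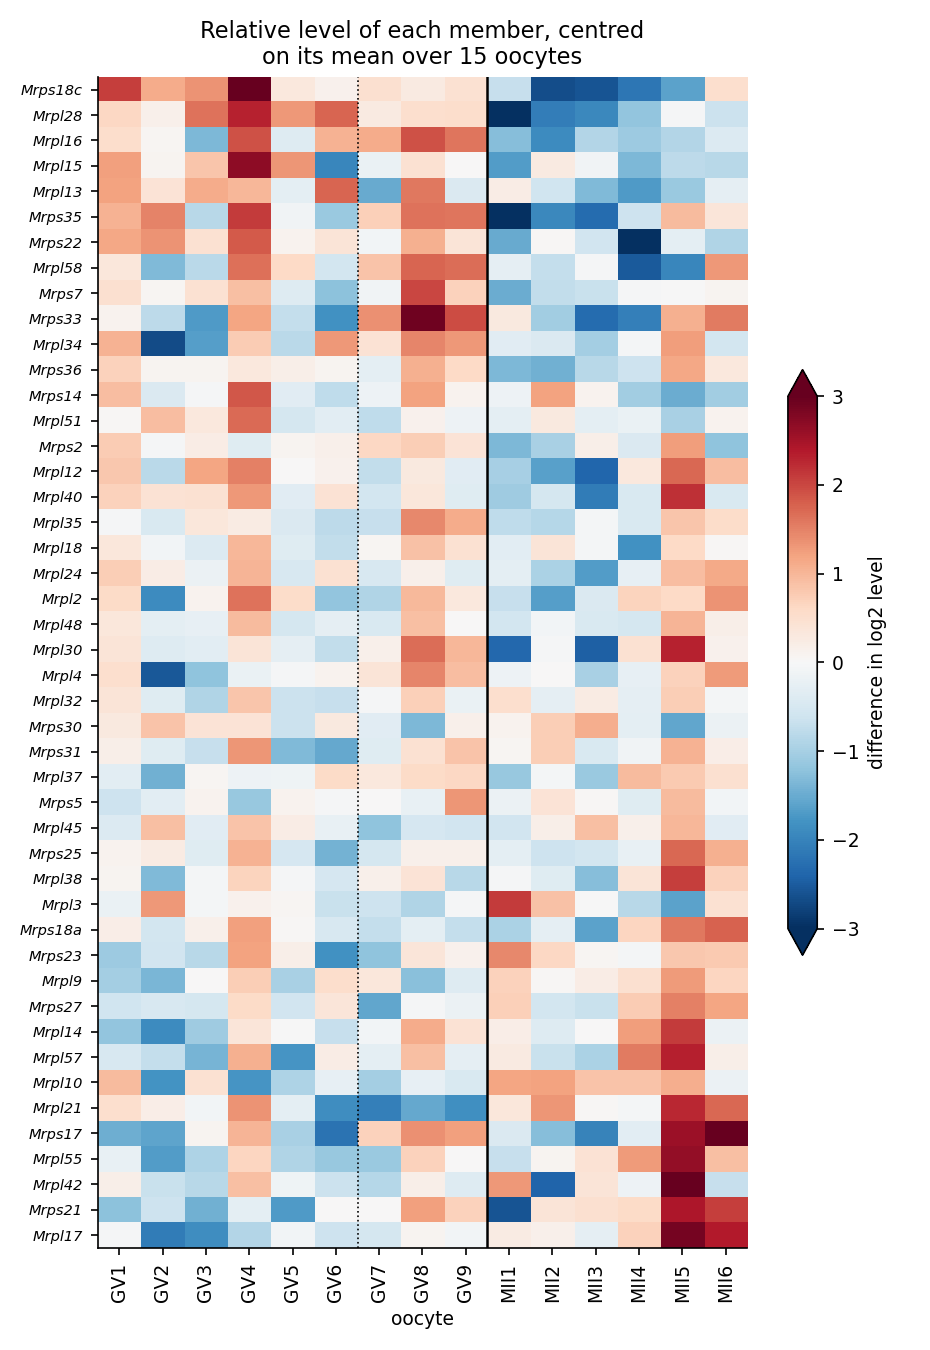
Relative level of each of the 46 measured genes (rows, from the lowest to the highest stage ratio) in each of 15 oocytes (columns), as the log2 difference from the gene's own mean, with colours held at −3 and 3. GV4 and GV8 are above the mean for most rows, MII5 is high for many rows in the lower part, and the dotted line separates GV1 to GV6 from GV7 to GV9.

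Members are short transcripts. Their median transcript length was 1222 bases against 2351 bases for all measured genes with a length. Across the 46 measured members the Spearman correlation of the ratio was −0.14 with transcript length and 0.19 with GC content, against −0.09 and 0.14 over 8383 measured genes. Genes of the same libraries share depth and amplification and are not independent replicates.

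The other genes of mitochondrial translation were taken from lists chosen with earlier results known. For 5 mitochondrial ribosomal proteins the names lie outside Mrpl and Mrps, and all 5 were measured with a median of −0.82, 2 lower and 0 higher. Dap3, a GTP-binding protein of the small subunit, had 94.2 CPM in GV and 63.6 CPM in MII, a ratio of 0.35 ± 0.92. Chchd1, another small subunit protein, had 2.36, 8.79 and 37.5 CPM in GV and 0.426, 0.667 and 3.29 CPM in MII, a ratio of −2.38 ± 0.98. The highest MII oocyte of Chchd1 (MII2) lay above its lowest GV oocyte (GV7).

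Among 27 assembly factors and modifiers of the ribosomal RNA, 10 were measured with a median of −0.23, 3 lower and 1 higher. Eral1, a chaperone of the small ribosomal RNA, had 16.04 and 2.18 CPM (ratio −1.93 ± 1.57), and Lonp1, the matrix protease, had 55.8 and 60.4 CPM (1.03 ± 1.05). Nsun4, a methyltransferase of the small ribosomal RNA, was the most abundant in CPM, with 124 and 62.2 CPM and a narrow spread (−0.08 ± 0.34). Of 15 translation factors, 7 were measured with a median of −0.01. Mrrf, which recycles ribosomes, had 9.16 and 1.97 CPM (−1.27 ± 1.57), and Tufm, the elongation factor that delivers tRNA, had 8.88 and 12.6 CPM (1.42 ± 1.08). Oxa1l, which inserts the new proteins into the membrane, had 61.9 and 24.4 CPM (−0.43 ± 1.04).

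Of 19 mitochondrial aminoacyl-tRNA synthetase genes, which charge the tRNAs, 9 were measured with a median of −0.01, 2 lower and 1 higher. Lars2, the leucine enzyme, stood far above the rest with 2158 CPM in GV and 4172 CPM in MII. It ran from 105 to 4803 CPM in GV and from 760 to 11687 CPM in MII, so its ratio of 1.86 did not exceed its spread of 2.10. Wars2, the tryptophan enzyme, had 9.22 and 1.97 CPM (−1.28 ± 1.92).

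The RNAs made inside the mitochondrion, which the ribosome contains or translates, were measured for 13 of 15 genes and had a median of −0.45, 1 lower and 1 higher. The lower one was mt-Nd4 (−1.19 ± 2.02) and the higher one mt-Co3 (1.48 ± 1.77). The small ribosomal RNA mt-Rnr1 had 3925 CPM in GV and 1527 CPM in MII, a ratio of −0.45 ± 1.40, −0.66 against the Y set and 0.22 against the E set. The large one, mt-Rnr2, had 1875 and 572 CPM, a ratio of −0.80 ± 1.06. The median of this list was −0.71 over 13 measured genes against the Y set and 1.41 over 12 against the E set. The median of the nuclear Mrpl and Mrps genes was 0.10 and −0.35.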

How the data were processed

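The data were whole-number counts per Ensembl gene ID deposited by the authors, 1 file per oocyte, in 9 GV and 6 MII libraries grouped by the stage in their labels. Per the labels' protocols, the cDNA of each oocyte went through 28 PCR cycles and was then sheared to 300 bp. Cutadapt 4.0, STAR 2.7.10a and GRCm39 are named in the submitters' processing notes. Not given in the sources used here are the counter, its annotation, its use of strand and of reads with several matches, and any molecular identifiers. Genes with no row in a file were given 0 counts there.

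Symbols, biotypes, transcript lengths and exon overlaps came from GENCODE M21 (GRCm38, another build than the files', so no coordinates of genes are given), and 28444 of 28785 gene IDs (98.8%) had a symbol. Members and lists (14 lists, 346 of 347 entries matched by gene ID) were chosen with earlier results of these data known. Counts were summed per stage and 0.5 was added before the log2 ratio. The ratio was centred on the median of genes with a mean of the GV and MII CPM of at least 5. The spread combines, as a root sum of squares, the SDs over the oocytes of each stage of log2(CPM + 1), taken relative to the median measured gene of the same oocyte, and is no error of a mean. Sums have exact Poisson intervals, ratios of 2 sums exact binomial ones, at 95%.

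Members were named by rule: the 8 lowest and 8 highest ratios among those measured, the 6 highest levels per kb in each stage, those at 0 in a stage, the 3 smallest and 3 largest SDs in GV, those without overlap, and those sharing a number. From other lists the rule took the lowest, highest and most abundant. For the cytosolic ribosome and respiratory chain lists these genes are not described here, and mt-Rnr2 was added outside the rule. A chi-square over genes was taken for each of 51 pairs of oocytes within a stage; it was at least 7.26 per degree of freedom, above sampling noise in each pair. Alternatives were other scalings (edgeR 4.0.16 TMM, DESeq2 1.42.0 median of ratios, plain CPM, totals without the unnamed feature), summaries, filters, thinning, sets of GV files and leaving out oocytes. The computation was tested on simulated data. Tools were Python 3.11.15, numpy 2.4.6, pandas 2.3.3, scipy 1.17.1, matplotlib 3.10.9 and R 4.3.3.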

Additional observations from a re-analysis of the deposited data

Results flagged for a closer look

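In 62 groups (the oocytes of 1 stage, for the 28 named members and 3 list levels: all members, Mrpl and Mrps), the highest or lowest oocyte was compared with its nearest neighbour by Dixon's ratio, and 10 groups held an oocyte far from the others. A chance rate of about 1 in 20 such groups assumes normally distributed values. For members CPM was used without a log scale, and the part of its upper tail in these results was not tested. The 10 groups therefore cannot be set against that rate. The members of 1 oocyte are also not independent. GV4 stood apart for 4 members, at 76.8 CPM for Mrps18c, 73.7 CPM for Mrpl28, 34.5 CPM for Mrpl15 and 152 CPM for Mrps18a. GV1 stood apart for Mrpl10 (41.4 CPM) and Mrpl19 (11.2 CPM). GV8 stood apart for Mrps33 (93.0 CPM) and Mrpl20 (5.05 CPM). In MII, MII5 stood apart for Mrpl42 (59.5 CPM) and Mrps36 (9.71 CPM). All 10 were the highest oocyte of their stage.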

How the results depend on the processing

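No paired analysis was possible because no result comes from a test and a number shared by a GV and an MII oocyte only names them. The median ratio of the 46 genes was −0.03 under TMM scaling and 0.02 under that by the median of ratios, but −0.90 in CPM that is not centred on the median gene, and that of the Mrpl genes was then −0.95, by construction, since the median gene lay at −0.91. Leaving out 1 oocyte put the medians between −0.25 and 0.09 for all members, −0.25 and 0.16 for Mrpl and −0.26 and 0.24 for Mrps. The number at least 2-fold lower, 8, was 22 in plain CPM, 14 with totals that leave out the unnamed feature, 17 against GV7 to GV9 only, 1 of 16 with a filter of 20 CPM, 20 of 77 with none (then centred on the median of all gene IDs), 13 with thinned oocytes and 16 without MII5 and MII6, and 6 to 14 with 1 oocyte left out. The number at least 2-fold higher, 7, was 1 in plain CPM, 2 with a filter of 20 CPM and 1 without MII5 and MII6, and 4 to 10 with 1 oocyte left out. The 14 came without GV3 and the 4 without MII5. Shares of all genes are not given for these settings, apart from GV7 to GV9 only. These counts therefore do not set the members apart from other genes. Of 840 ratios of 28 named members under 30 settings, 5 belonged to genes at least 2-fold apart and changed sign. Of the rest, 824 moved by less than the spread, some of them across 0, and 11 moved by more. The 5 that changed sign were the Mrpl20 ratio (0.0277 with 5 added to each sum and 2.90 with the median of CPM), the Mrpl42 ratio (−0.071 without MII5, where its lowest and highest with 1 oocyte left out were −0.071 and 1.80) and Mrps17 (−0.43 with the median of CPM and −1.43 without MII5 and MII6). Apart from plain CPM and the filters, the cause was not tested. Depth limits the MII values, where 3 counts over the stage are 0.311 CPM against 0.0683 CPM in GV.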
